A study of Mus musculus with 6 samples.

Results

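The immediate-early AP-1 and EGR genes are 10 transcription regulators and related factors that were chosen by name, namely FOS, FOSB, FOSL1, JUN, JUNB, JUND, EGR1, EGR2, EGR3 and IER2. Each of the 10 was found as 1 row among the 39234 genes of the deposited table. They were measured by RNA sequencing in HK-2, a human kidney proximal tubule line that has been immortalized, in 3 libraries labelled control and 3 labelled with USAG-1 overexpression. The labels give the wild-type genotype to both groups. They name mouse as the organism, although HK-2 is human and so are the identifiers in the table. According to the study's methods, overexpression in cells was by transient transfection of a plasmid, so a culture can hold cells with and without it, and HK-2 cells were kept in medium with serum. The time from transfection or from the last change of medium to harvest, and what the control cultures received, are not given in the sources used here. The study's methods speak of biological replicates for most experiments without naming the RNA sequencing, and the labels do not say that the 3 libraries of a group came from cultures grown apart, so p-values measure the spread between these libraries, which may be technical.

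Immediate-early genes are transcribed within minutes of a signal such as serum, a growth factor, stress or injury, from factors already present in the cell, and their RNAs are short-lived. The proteins of FOS, FOSB and FOSL1 pair with those of JUN, JUNB and JUND to form AP-1, which binds DNA through a leucine zipper and a basic region. The EGR proteins bind DNA through zinc fingers and are held back by the NAB proteins. In kidney tubule cells, genes of this kind are known to respond to ischemia and reperfusion.

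The 6 libraries held between 41236194 and 48699471 counted reads, and 18188 genes passed a filter on low counts and were tested. Levels are given in CPM, a gene's counts relative to the total counts of its library, after TMM scaling and are not divided by gene length, so they are compared between libraries and not between genes. Fold changes are on the log2 scale for USAG-1 overexpression over control, and a gene was called where the quasi-likelihood test of edgeR gave an adjusted p under 0.05 (Benjamini-Hochberg, over all genes tested). Control replicate 3 stood apart from the other control libraries, with a chi-square per degree of freedom of 47.2 and 47.7 against them, where control replicates 1 and 2 gave 6.87. Of the epithelial markers, KRT8 had between 971 and 1277 CPM and PAX8 between 365 and 455 CPM, while CDH1 had at most 0.206 CPM. Among proximal tubule markers, GGT1 had between 85.1 and 164 CPM and MME between 14.9 and 34.2 CPM. In the same list LRP2 had no count in any library and HNF4A was at 0 in 5 of the 6. SOSTDC1, which encodes USAG-1, was counted 79, 80 and 60 times in control cells and 5072, 3907 and 4438 times with overexpression, a rise of 5.94 on the log2 scale in the direction the labels give.

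In USAG-1-overexpressing cells, JUN and EGR1 were higher than in control cells, by 1.52-fold and 1.74-fold. FOS, FOSB, FOSL1, JUNB, JUND, EGR2, EGR3 and IER2 did not pass the test. All 10 members passed the filter, EGR3 through 3 libraries alone. Among them 2 were called higher, where the background over all genes tested was 8.95% higher, 6.91% lower and 15.9% in either direction. The number called lower was 0 by edgeR's quasi-likelihood test, by DESeq2's Wald test and by limma-voom, and also 0 at an unadjusted p under 0.05 (edgeR). The groups did not overlap in 3 members, all higher with overexpression, where this held for 19.4% of all genes tested in that direction and for 37.6% in either. In bulk RNA, fewer cells with a transcript and less RNA per cell cannot be told apart.

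**Figure D1:**
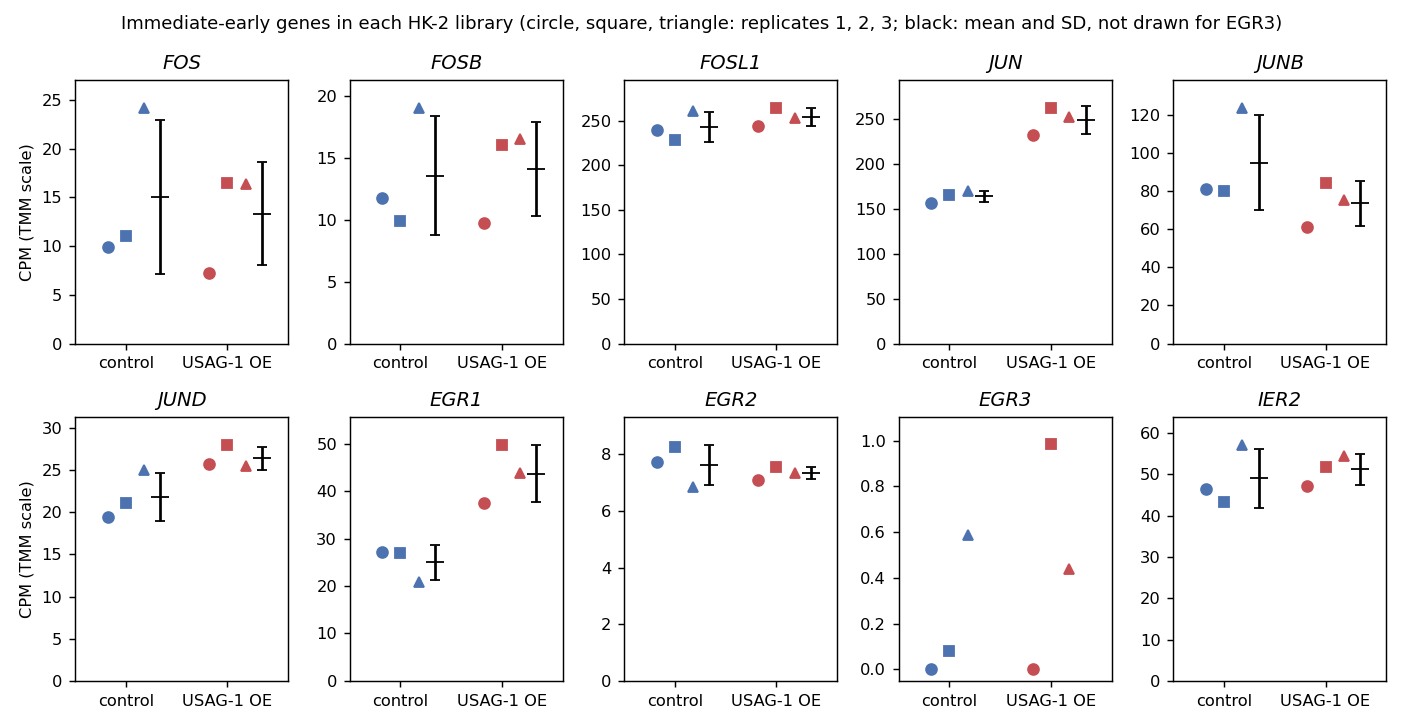
Level of each immediate-early gene in CPM on the TMM scale (vertical axis, linear, with 0 shown and its own range per gene) in 3 control libraries (blue) and 3 libraries with USAG-1 overexpression (red). Circles, squares and triangles are replicates 1, 2 and 3, and the black bar is the mean with its SD (n = 3), not drawn for EGR3. JUN and EGR1 separate the groups, whereas FOS, FOSB and EGR3 spread widely within both.

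JUN (ENSG00000177606; chromosome 1, 58776845 to 58784048, minus strand; positions here are those of the authors' table, with hg38 named as the build in the submitters' processing notes) encodes the AP-1 subunit c-Jun, which binds DNA as a dimer with itself or with FOS proteins. Its level was 157, 165 and 169 CPM in control replicates 1, 2 and 3 and 232, 262 and 252 CPM in USAG-1 overexpression replicates 1, 2 and 3. Every library with overexpression lay above every control library, and the spread within each group was narrow. The means were 164 ± 6.37 and 249 ± 15.2 CPM (SD, n = 3 each). The log2 fold change was 0.60 (standard error 0.06, 95% interval 0.46 to 0.75, adjusted p = 0.00113, edgeR's quasi-likelihood test). JUN was called under every alternative tried, with a log2 fold change between 0.57 and 0.65.

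JUNB (ENSG00000171223; chromosome 19, 12791486 to 12793315, plus strand) encodes an AP-1 subunit that activates less strongly than c-Jun and can oppose it. It had 81.0, 79.8 and 124 CPM in the control libraries and 61.0, 84.4 and 75.6 CPM with overexpression. Control replicate 3 was the highest library and USAG-1 overexpression replicate 1 the lowest, and the groups overlapped. The log2 fold change was -0.36 (standard error 0.18, 95% interval -0.79 to 0.06, adjusted p = 0.225, edgeR). Without control replicate 3 it was -0.12. JUNB overlaps HOOK2 on the opposite strand, and the libraries are stranded per the labels, but how the counting used strand is not given in the sources used here.

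JUND (ENSG00000130522; chromosome 19, 18279694 to 18281622, minus strand) encodes the JUN protein that is present in most resting cells and changes least with stimulation. Its level was 19.4, 21.1 and 25.0 CPM in control cells and 25.7, 27.9 and 25.5 CPM with overexpression, so that the groups did not overlap, with control replicate 3 close below the overexpressing libraries. The log2 fold change was 0.27 (standard error 0.10, 95% interval 0.04 to 0.51), with an unadjusted p of 0.0293 and an adjusted p of 0.116 (edgeR). Without control replicate 3 the log2 fold change was 0.39 and passed the threshold (adjusted p = 0.00585, edgeR). This was the one alternative of 16 in which JUND passed. In that fit 27% of all genes tested were called, against 15.9% with all libraries.

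FOS (ENSG00000170345; chromosome 14, 75278826 to 75282230, plus strand) encodes c-Fos, which has no stable dimer of its own and binds DNA with a JUN protein. FOS was counted 415, 545 and 1030 times in control cells and 330, 719 and 704 times with overexpression, or 9.94, 11.0 and 24.2 CPM against 7.19, 16.5 and 16.3 CPM. Both the highest library (control replicate 3) and the lowest (USAG-1 overexpression replicate 1) stood apart from the other 2 of their group. Within control cells the highest library was 2.43 times the lowest, and within overexpressing cells 2.29 times. Its log2 fold change, at an adjusted p of 0.811 (edgeR), was -0.18 with a standard error of 0.40, and the 95% interval of -1.09 to 0.74 corresponds to folds from 0.469 to 1.67. The direction rested on single libraries, since the value was 0.35 without control replicate 3 and 0.13 when USAG-1 overexpression replicate 1 was left out.

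FOSB (ENSG00000125740; chromosome 19, 45467995 to 45475179, plus strand) encodes a FOS protein that also exists as a longer-lived short form. It had 11.7, 9.91 and 19.0 CPM in control cells and 9.69, 16.0 and 16.5 CPM in overexpressing cells. The same 3 libraries as for FOS were the highest, namely control replicate 3 and USAG-1 overexpression replicates 2 and 3. The log2 fold change was 0.05 (standard error 0.27, 95% interval -0.58 to 0.69, adjusted p = 0.918, edgeR), and with 1 library left out it lay between -0.13 (control replicate 2 out) and 0.39 (control replicate 3 out). FOSB overlaps ERCC1 on the opposite strand, whose counts summed to 10449 over the 6 libraries.

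FOSL1 (ENSG00000175592; chromosome 11, 65892049 to 65900419, minus strand) encodes Fra-1, which accumulates later and more lastingly than c-Fos when ERK signalling persists. Its level was 239, 228 and 261 CPM in control libraries and 244, 264 and 253 CPM with overexpression. The groups overlapped, and the libraries spanned a narrow range. At an adjusted p of 0.575 (edgeR) the log2 fold change was 0.06 with a standard error of 0.07 and a 95% interval of -0.09 to 0.22 that bounds the fold between 0.94 and 1.16.

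EGR1 (ENSG00000120738; chromosome 5, 138465479 to 138469303, plus strand) encodes a zinc finger factor that is induced through serum response elements and activates genes of growth, matrix and its own co-repressor NAB2. EGR1 was counted 1137, 1331 and 886 times in control cells and 1724, 2167 and 1886 times with overexpression, or 27.2, 27.0 and 20.8 CPM against 37.5, 49.6 and 43.7 CPM. All 3 overexpressing libraries lay above all 3 control libraries, and control replicate 3, the highest library for FOS and JUNB, was the lowest for EGR1. The means were 25.0 ± 3.65 and 43.6 ± 6.04 CPM (SD, n = 3 each). The log2 fold change was 0.80 (standard error 0.13, 95% interval 0.50 to 1.11, adjusted p = 0.0063, edgeR's quasi-likelihood test). EGR1 was called under each of the 16 alternatives tried, with a log2 fold change between 0.69 (control replicate 3 left out) and 0.90 (USAG-1 overexpression replicate 1 left out).

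EGR2 (ENSG00000122877; chromosome 10, 62811996 to 62818659, minus strand) encodes a close relative known for its part in nerve myelination and in lymphocytes. The levels of 7.71, 8.25 and 6.85 CPM in control cells and 7.10, 7.56 and 7.35 CPM with overexpression overlapped. Its log2 fold change was -0.05 (standard error 0.13, 95% interval -0.34 to 0.24, adjusted p = 0.822, edgeR). EGR3 (ENSG00000179388; chromosome 8, 22687659 to 22693480, minus strand), which is often induced with EGR1, was close to the detection limit. It was counted 0, 4 and 25 times in control cells and 0, 43 and 19 times with overexpression. A count of 0 allows up to 0.0719 CPM in control replicate 1 and 0.0653 CPM in USAG-1 overexpression replicate 1, for counting error only. Its log2 fold change of 1.09 had a standard error of 1.38 and a 95% interval of -2.07 to 4.25 (adjusted p = 0.647, edgeR). Neither a fall nor a rise within these bounds could be excluded.

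IER2 (ENSG00000160888; chromosome 19, 13150411 to 13154911, plus strand) encodes a nuclear protein that is induced along with FOS and JUN and belongs to neither family. It had 46.6, 43.4 and 57.0 CPM in control cells and 47.2, 51.8 and 54.5 CPM in overexpressing cells, with control replicate 3 again the highest library. The log2 fold change was 0.06 (standard error 0.11, 95% interval -0.18 to 0.31, adjusted p = 0.742, edgeR). Without control replicate 3 it was 0.19, and without control replicate 2 it was -0.017.

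**Figure D2:**
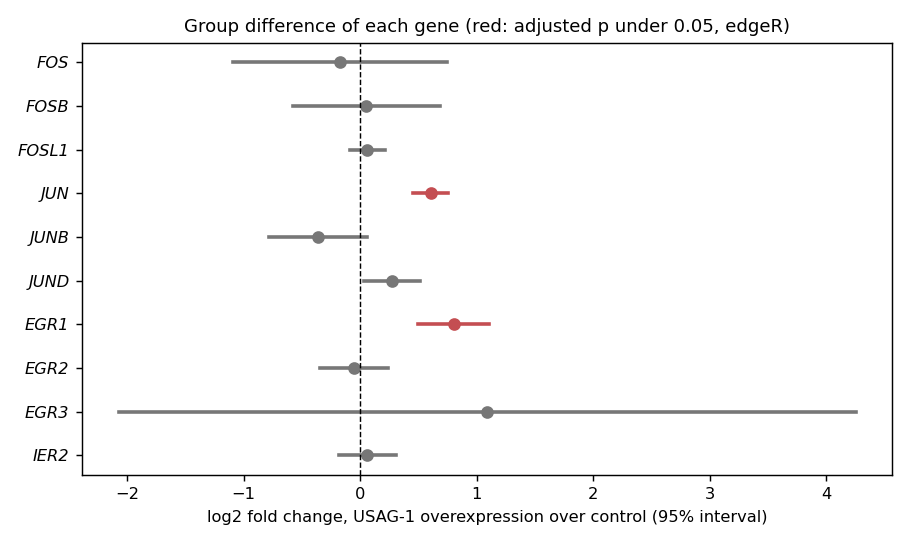
Log2 fold change of each immediate-early gene for USAG-1 overexpression over control (horizontal axis; point) with its 95% interval (line) from edgeR's quasi-likelihood fit, with genes called at an adjusted p under 0.05 in red. The intervals of JUN (0.46 to 0.75) and EGR1 (0.50 to 1.11) lie above 0, that of FOSL1 is narrow around 0, and that of EGR3 runs from -2.07 to 4.25.

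The members differed in how much they varied among replicates. The SD of log2 CPM within groups, pooled over both, was 0.69 for FOS, 0.46 for FOSB and 0.30 for JUNB. Among the 1000 genes tested with the closest mean level, these spreads lay above 99.3%, 98.3% and 98.5% of the genes. EGR1 was at 91.3% (SD 0.21) and IER2 at 86.1% (SD 0.16). JUN (SD 0.07, 43.8%), FOSL1 (SD 0.08, 51.2%) and JUND (SD 0.14, 66.8%) were ordinary in this respect, and EGR2 (SD 0.10, 12.1%) was among the steadier genes. For EGR3, with counts of 0 in 2 libraries, no such value is given.

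The libraries in which FOS was high were shared by other members. In FOS, FOSB, FOSL1, EGR3 and IER2 the 3 highest libraries were control replicate 3 and USAG-1 overexpression replicates 2 and 3. These are 5 of 10 members, but the match was fixed in advance for FOS, which defined the 3 libraries. It was also fixed for EGR3, which passed the filter on low counts through these libraries alone. That leaves FOSB, FOSL1 and IER2 as members that could have differed. The same 3 libraries were the highest for 6.4% of all genes tested. The order was noticed in these data and is a description. Relative to the mean of the other 2 control libraries, control replicate 3 was 2.30 times as high for FOS, 1.76 times for FOSB, 1.54 times for JUNB and 1.27 times for IER2, but 0.767 times for EGR1 and 1.05 times for JUN. USAG-1 overexpression replicate 1 was at 0.439 times the mean of the other 2 overexpressing libraries for FOS, 0.596 times for FOSB, 0.763 times for JUNB and 0.805 times for EGR1. The labels give no date or batch to set beside this split, which runs across both groups.

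**Figure D3:**
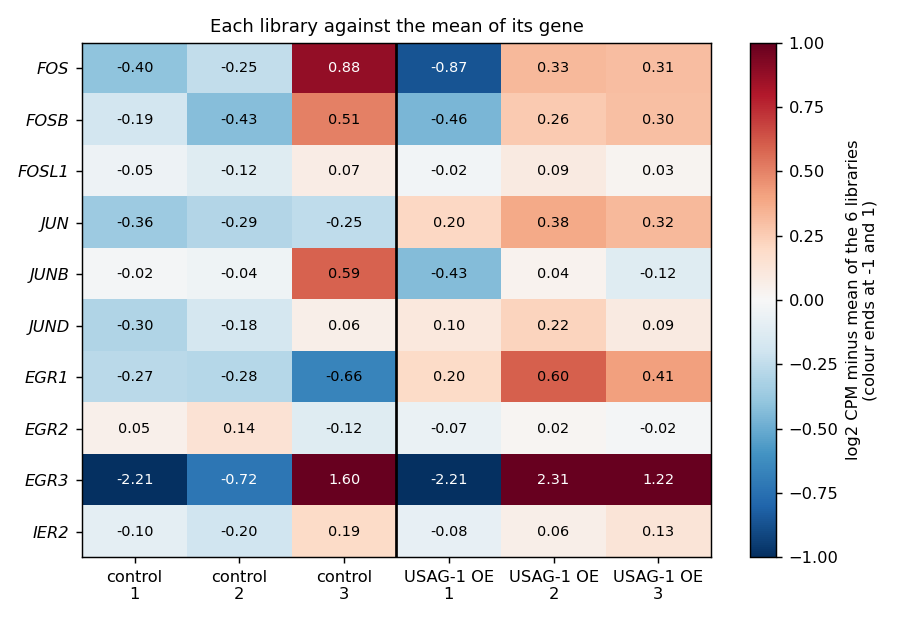
Log2 CPM of each immediate-early gene in each library minus its mean over the 6 libraries (number and colour, where colour ends at -1 and 1), with control libraries left of the line and USAG-1-overexpressing libraries right of it. FOS, FOSB and EGR3 are high in control replicate 3 and in USAG-1 overexpression replicates 2 and 3, whereas JUN and EGR1 are low in every control library and high in every overexpressing one.

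Some marker genes, of the epithelium as well as of other cells, had the same 3 highest libraries. Of the 7 epithelial markers 4 did (KRT8, KRT18, KRT19 and EPCAM), and of the 9 myeloid markers 3 did (S100A9, S100A8 and TYROBP). KRT8 had 995, 971 and 1277 CPM in control libraries and 1073, 1125 and 1102 CPM with overexpression. S100A9, a calcium-binding protein abundant in neutrophils and monocytes that epithelial cells can also make, had 13.7, 9.73 and 47.9 CPM in the control libraries and 8.08, 28.5 and 33.2 CPM with overexpression. S100A8, its partner, had 2.87, 1.93 and 23.0 CPM and then 2.22, 16.2 and 9.96 CPM. The other 6 myeloid markers did not share these libraries. LYZ was called lower, with 37.7, 21.8 and 23.3 CPM against 17.6, 14.5 and 17.6 CPM. ITGAM, an integrin of myeloid cells, was also called lower, with 3.38 to 5.01 CPM in control libraries against 1.67 to 2.11 CPM, and among the control libraries it was lowest in replicate 3, as was CSF1R. The summed level of the 9 myeloid markers was 53.2 to 114 CPM in control libraries and 41.5 to 76.8 CPM in overexpressing libraries, and no marker of the list was at 0 in every library. S100A8, TYROBP, ITGAM, CSF1R, KRT18, KRT19 and EPCAM were chosen after their values were seen. The part of myeloid cells in the levels of FOS, FOSB, JUNB and EGR3 was not tested.

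Markers of T cells moved with the groups themselves. All 15 T cell and cytotoxic markers were lower in USAG-1-overexpressing cells, with a summed level of 106 to 129 CPM in control libraries and 12.3 to 15.9 CPM with overexpression. GNLY, a protein of cytotoxic granules, had 24.9 ± 3.58 CPM in control and 1.23 ± 0.709 CPM in overexpressing cells (SD, n = 3 each). PTPRC, which encodes the leukocyte antigen CD45, had 13.6 ± 4.66 and 4.38 ± 1.25 CPM. JUN and EGR1 were higher in the group in which these markers were lower, and JUNB had its lowest library there. The part of T cell RNA in the members' levels was not tested. Hemoglobin RNA followed neither split, with HBB at 70.4 CPM in control replicate 2, at 51.6 CPM in USAG-1 overexpression replicate 1 and at most 7.97 CPM elsewhere.

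The balance within each family was compared as a ratio of counts of 2 members in the same library, in which library scaling cancels. The size of a ratio also reflects gene length, so only its difference between libraries is read. Of the 7 pairs with counts in every library, 4 had groups that did not overlap. For these a two-sided exact permutation test gave p = 0.1, the smallest that 3 libraries against 3 allow (adjusted p = 0.175 over the 7 pairs). The pairs are not separate results, since the ratios among JUN, JUNB and JUND share members. JUN, JUND and EGR1 already had groups that did not overlap, as did 37.6% of all genes tested. The share among other gene pairs was not computed. The ratio of JUN to JUNB was 1.93, 2.06 and 1.37 in control libraries and 3.80, 3.10 and 3.33 with overexpression, a difference of 0.95 on the log2 scale. The ratio of JUN to JUND was 6.78 to 8.07 in control and 9.03 to 9.88 in overexpressing libraries, and that of JUNB to JUND was 3.78 to 4.96 against 2.38 to 3.02. The ratio of EGR1 to EGR2 was 3.53, 3.27 and 3.03 in control libraries against 5.29, 6.57 and 5.95, a log2 difference of 0.85. In the FOS family the ranges of all 3 pairs overlapped, and FOSB to FOSL1 differed by 0.01 on the log2 scale.

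**Figure D4:**
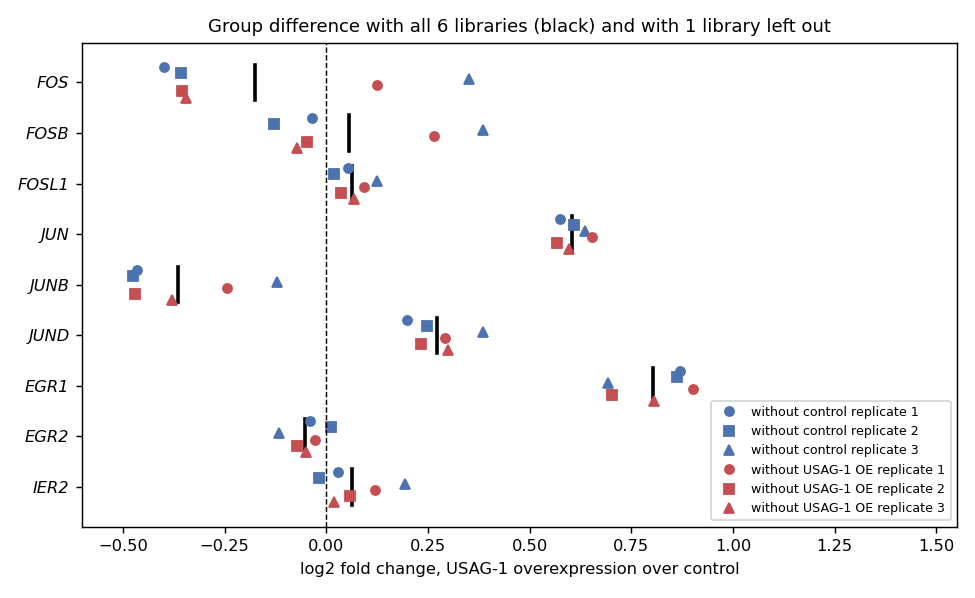
Log2 fold change of 9 immediate-early genes for USAG-1 overexpression over control with all 6 libraries (black bar) and with 1 library left out (blue, a control library; red, a library with overexpression; circles, squares and triangles for replicates 1, 2 and 3). EGR3, whose values run from -0.016 to 3.39, is not drawn. JUN stays between 0.57 and 0.65 and EGR1 between 0.69 and 0.90, whereas FOS and FOSB cross 0.

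Genes around these factors were described from 6 lists typed from general knowledge. Of their 107 genes, 103 were tested, and 16 were called higher and 9 lower, which is 24.3% against 15.9% of all genes tested. Their median log2 fold change was 0.05, where that of all genes tested was -0.02. Over all genes tested 8.95% were called higher and 6.91% lower, the shares to set beside the counts of each list. This count depended on single libraries, and so did that over all genes tested. Higher calls in the lists numbered 34 without control replicate 3 and 8 or fewer without any other single library. They were down to 6 without USAG-1 overexpression replicate 2, and lower calls ran from 4 to 11. Over all genes tested, 27% were called without control replicate 3 and 5.98% to 10.2% without any other single library. Of the 25 called genes, 10 were called under every alternative, among them ATF3, CCN1, CCN2, HBEGF, IL11, JDP2, MAF, SGK1 and SPP1.

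Among the relatives of AP-1 and EGR, 3 of 13 genes tested rose and 1 fell, with a median log2 fold change of 0.18. ATF3, a stress-induced factor that pairs with JUN proteins and often represses, had 8.98, 10.4 and 11.1 CPM in control libraries and 17.7, 21.8 and 21.7 CPM with overexpression. The groups did not overlap, and at an adjusted p of 0.00195 (edgeR) the log2 fold change was 1.01 with a standard error of 0.12. JDP2, a repressor that binds JUN, rose from 4.56 ± 0.523 to 8.07 ± 0.291 CPM (SD, n = 3 each; log2 fold change 0.82, adjusted p = 0.00679, edgeR). MAFF, a small MAF protein, rose by 0.56 on the log2 scale and was not called without USAG-1 overexpression replicate 2 or 3. In those fits 5.98% and 7.09% of all genes tested were called, against 15.9% with all libraries. MAF, a large MAF factor that T cells also express, had 1.20, 0.871 and 2.09 CPM in control libraries and 0.283, 0.229 and 0.232 CPM with overexpression, a log2 fold change of -2.46 (adjusted p = 0.00717, edgeR). The T cell markers fell in the same libraries, and their part in the fall of MAF was not tested. EGR4 had no count in any library.

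**Figure D5:**
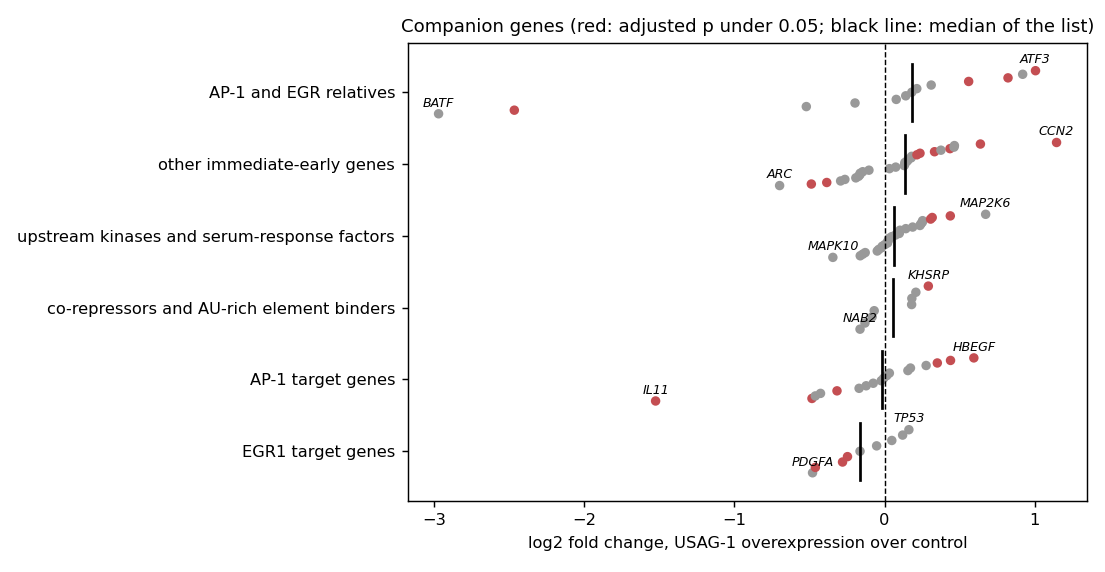
Log2 fold change for USAG-1 overexpression over control (horizontal axis) of each tested gene in 6 lists around AP-1 and EGR (points, in red where the adjusted p was under 0.05), with the median of each list as a black line and the lowest and highest gene named. The medians lie between -0.16 for EGR1 target genes and 0.18 for AP-1 and EGR relatives, and ATF3 and CCN2 reach 1.01 and 1.15.

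Of the other immediate-early genes, 6 of 29 tested rose and 2 fell, with a median log2 fold change of 0.14. CCN2, a matricellular protein induced by serum and TGF-beta, had 105, 99.1 and 97.6 CPM in control libraries and 184, 258 and 225 CPM with overexpression (log2 fold change 1.15, standard error 0.11, adjusted p = 8.71e-04, edgeR). CCN1, its relative, rose from a mean of 1329 ± 38.2 to one of 1675 ± 91.7 CPM (SD, n = 3 each; log2 fold change 0.33, adjusted p = 0.00706, edgeR). SGK1, a serum- and glucocorticoid-induced kinase, went the other way and fell by 0.38 on the log2 scale (adjusted p = 0.00319, edgeR). IER3, KLF4, TIPARP and HES1 also rose and RHOB also fell, with log2 fold changes between -0.49 and 0.64. Each of these 5 calls was lost on leaving out at least 1 library, HES1 on leaving out USAG-1 overexpression replicate 2 alone. Over all genes tested, calls fell from 15.9% to between 5.98% and 10.2% without any 1 library other than control replicate 3.

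Several genes of this list shared their highest libraries with FOS. The 3 libraries highest for FOS were also the highest for 9 of its 30 genes, chosen to be named after their values were seen. This held for 6.4% of all genes tested. It was not particular to immediate-early genes, since it also held for 4 of 7 epithelial markers and 3 of 9 myeloid markers. ZFP36, an AU-rich element binder that hastens the decay of FOS RNA, had 13.2, 12.0 and 38.2 CPM in control libraries and 12.1, 28.5 and 31.2 CPM with overexpression. DUSP1, a phosphatase that turns off MAP kinases, had 48.1, 47.3 and 80.5 CPM and then 58.2, 90.0 and 94.7 CPM. BTG2, an antiproliferative gene, had 5.05, 4.52 and 8.72 CPM and then 3.20, 5.27 and 6.77 CPM. In all 3 genes the groups overlapped, and the adjusted p was 0.842, 0.238 and 0.639 (edgeR). The other 6 genes were MYC, NR4A2, NR4A3, CSRNP1, PPP1R15A and PLK3.

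Kinases and serum-response factors upstream were called about as often as other genes, with 10.7% called higher against 8.95% of all genes tested. Of 28 genes tested, 3 rose, and the median log2 fold change was 0.06. MRTFA, a co-activator of SRF that senses actin, rose by 0.31, HRAS by 0.44 and MAP2K7, a kinase of the JNK branch, by 0.32 on the log2 scale (adjusted p = 0.0274, 0.0474 and 0.0318, edgeR), and each of these calls was lost without any library other than control replicate 3. Among 8 co-repressors and AU-rich element binders 1 rose, KHSRP, which promotes decay of AU-rich RNAs, by 0.29 on the log2 scale (adjusted p = 0.0197, edgeR), a call lost in the same 5 fits. In those 5 fits 5.98% to 10.2% of all genes tested were called, against 15.9% with all libraries. ELAVL1 had a log2 fold change of 0.18 (adjusted p = 0.153, edgeR) and HNRNPD one of -0.13 (adjusted p = 0.155, edgeR).

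Genes known as AP-1 targets moved in both directions, with 3 higher and 3 lower of 18 tested and a median log2 fold change of -0.01. HBEGF, a ligand of the EGF receptor, had 29.2, 24.9 and 28.3 CPM in control libraries and 41.1, 40.9 and 42.4 CPM with overexpression (log2 fold change 0.59, standard error 0.08, adjusted p = 0.00233, edgeR). SPP1, which encodes osteopontin, rose by 0.44 on the log2 scale (adjusted p = 0.00295, edgeR). IL11 fell from 2.50 to 0.866 CPM and LIF from 183 to 147 CPM, and HMOX1 rose by 0.35 on the log2 scale. The calls of LIF and HMOX1 were each lost without any 1 library other than control replicate 3. In those fits calls over all genes tested also fell, from 15.9% to between 5.98% and 10.2%.

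Of 9 genes known as EGR1 targets, 3 fell and 6 were not called. Over all genes tested 6.91% were called lower and 15.9% in either direction. The median log2 fold change of the list was -0.16, with EGR1 itself higher. Whether EGR1 acted on these genes was not tested. PDGFB, a growth factor, had 22.2, 24.0 and 26.2 CPM in control libraries and 14.9, 19.6 and 18.1 CPM with overexpression, a log2 fold change of -0.46 (adjusted p = 0.0336, edgeR). TGFB1 fell by 0.28 and ICAM1, a leukocyte adhesion receptor, by 0.25 on the log2 scale (adjusted p = 0.0241 and 0.042, edgeR). The call of TGFB1 was lost without any library other than control replicate 3, and those of PDGFB and ICAM1 without control replicate 2 or any library with overexpression. Calls over all genes tested also fell in these fits, to between 5.98% and 10.2%. NAB2, the co-repressor that EGR1 activates, had the lowest log2 fold change in the list of co-repressors and was not called.

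The genes most like FOS and EGR1 were found by Pearson's r of log2 CPM over the 6 libraries, among 11092 named genes with at least 5 CPM on average. Closest to FOS were DHX16 (r = 0.992), ZNF32 (0.986), TLE5 (0.982), TM9SF2 (0.978) and TRIM28 (0.973). All 5 shared the 3 highest libraries and the lowest library of FOS, and TM9SF2 ran only from 110 to 115 CPM. Closest to EGR1 were MEX3A (r = 0.999), MAP7D3 (0.996), MBP (0.995), CDC42EP3 (0.994) and NUP133 (0.993). An r above 0.9 was reached by 0.938% of the genes for FOS and by 8.6% for EGR1. With group means taken out, the genes closest to FOS were TCEA3 (r = 0.997), POC1A (0.997), ZSCAN25 (0.996), CNOT3 (0.994) and LINC00665 (0.994). These values describe 6 libraries that share a scaling, and no test is attached to them.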

How the data were processed

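RNA of 3 control and 3 USAG-1-overexpressing HK-2 libraries was measured by stranded, poly(A)-selected, paired-end sequencing per the labels, although the design text names depletion of ribosomal RNA. The authors deposited 1 table of whole-number counts per gene, not normalized. The submitters' processing notes name cutadapt 1.9, FastQC and hg38, and the aligner and the counting are not given in the sources used here. Genes were kept by filterByExpr, normalized by TMM and compared with the quasi-likelihood test of edgeR 4.0.16 in R 4.3.3 (Benjamini-Hochberg adjustment over 18188 genes, threshold 0.05). The genes tested held 99.9% of the counts. The standard error of a log2 fold change was derived from its F statistic. For log2 CPM the prior count was 2. The code was tested on simulated data.

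The members and lists were chosen with earlier results of these data known. Genes named are SOSTDC1, all members, the 3 genes with the smallest p of each list, 2 per marker list (those with the highest mean in control cells) and 5 per likeness ranking, and any others were chosen after their values were seen. One gene that this rule names is not reported here. Alternatives were DESeq2 1.42.0 (size factors; Wald test), limma-voom (limma 3.58.1), library sizes alone, other filters, a replicate block, library sizes without mitochondrial genes or without SOSTDC1, leaving out each library, and a threshold of 0.01.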

Additional observations from a re-analysis of the deposited data

How the results depend on the processing

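JUN and EGR1 were called higher under all 16 alternatives, and the count of members called higher was 2 in each of them except without control replicate 3, where it was 3 (JUND added). Of all genes tested, 27% were called without control replicate 3 and 15.9% with all libraries. The count of members called lower was 0 throughout (edgeR, DESeq2 and limma-voom). With a library left out, the log2 fold change of FOS ran from -0.40 to 0.35, turning positive when control replicate 3 (0.35) or USAG-1 overexpression replicate 1 (0.13) was left out. FOSB ran from -0.13 to 0.39 and turned negative when control replicate 1 (-0.04) or 2 (-0.13), or overexpression replicate 2 (-0.05) or 3 (-0.07), was left out. Both EGR2 (0.011, range -0.12 to 0.011) and IER2 (-0.017, range -0.017 to 0.19) changed sign without control replicate 2, and EGR3 (-0.016, range -0.016 to 3.39) without overexpression replicate 2. EGR3 has no value with at least 10 counts in every library. The cause was not tested. Among companion genes, with 1 library left out the count called higher ran from 6 to 34 and the count called lower from 4 to 11, against 16 and 9 with all libraries. Over all genes tested, 5.98% to 27% were called with 1 library left out, against 15.9% with all libraries. At an adjusted p under 0.01 (edgeR) the companion counts were 6 and 4, where 6.07% of all genes tested were called. The labels do not say that a replicate number marks a shared batch, and the deviations of same-numbered libraries correlated at 0.07, -0.05 and 0.04, so the numbers were not taken to pair the libraries. With a replicate block, the log2 fold change was 0.60 for JUN (adjusted p = 0.00443) and 0.80 for EGR1 (adjusted p = 0.0118), 14 companion genes were higher and 8 lower, and genes called in all fell from 2884 to 2381. Depth limits EGR3 alone among the members, with at most 43 counts in a library.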

Other observations

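Of the marker genes with the highest control levels, 3 rose with USAG-1 overexpression (edgeR's adjusted p throughout). PAX8, a transcription factor of the kidney epithelium, had 375 ± 8.57 CPM in control and 448 ± 7.16 CPM in overexpressing cells (SD, n = 3 each; adjusted p = 0.0114). GGT1, a brush border enzyme, had 105 ± 17.0 and 153 ± 14.2 CPM (adjusted p = 0.0208). MME, the peptidase neprilysin, had 17.2 ± 2.12 and 33.6 ± 0.527 CPM (adjusted p = 9.41e-04). KRT8, a keratin, did not pass the test (adjusted p = 0.897). The B cell markers summed to 2.01 to 3.66 CPM in control and 1.22 to 3.22 CPM in overexpressing libraries, with CD79A (adjusted p = 0.675) and MS4A1 (adjusted p = 0.181) not called. HBB (adjusted p = 0.898) and HBA2 (adjusted p = 0.937), which encode hemoglobin chains, were not called either.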
